A study of Mus musculus with 4 samples.

Results

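The Slc25 genes encode the mitochondrial carrier family, and the 47 of them in the authors' deposited expression table were examined in the livers of 4 mice. Members were chosen by symbol alone, as every row whose gene symbol begins with Slc25a followed by a number, which gave 47 of 24138 rows. All 4 livers came from male C57BL/6J mice aged 18 weeks given resolvin D1 (RvD1), a lipid that helps inflammation to resolve, while on the FAT-MASH diet, which serves as a mouse model of MASH (metabolic dysfunction-associated steatohepatitis). By its title, the series is concerned with RvD1 and the crosstalk of liver cells. The livers form a single group, numbered 1 to 4 as in the labels. Livers without RvD1 or without the diet were not analysed here, so the values give levels and their spread between animals, and no effect of either agent. Nothing in the labels says whether the animals shared a cage or a day, or gives the dose of RvD1.

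Mitochondrial carriers are nuclear-encoded proteins that sit, with few exceptions, in the inner mitochondrial membrane, and each is built of a repeated pair of membrane helices. They exchange metabolites across a membrane that is otherwise closed to them: ATP for ADP, phosphate, citrate and malate, aspartate and glutamate, ornithine, acylcarnitines, iron and cofactors. In hepatocytes this traffic feeds oxidative phosphorylation, fatty acid oxidation, the urea cycle, gluconeogenesis and the export of citrate for lipogenesis.

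Values are given as FPKM, fragments scaled to transcript length and to the mapped total, so levels of genes of different length can be compared. An approximate depth of 18.4 to 19.5 M fragments per liver was read from the lowest values, at which a single fragment on a transcript with 1 kb of usable length is worth 0.0512 to 0.0544 FPKM. A gene counted as expressed where its mean over the 4 livers reached 1 FPKM, which held for 10541 of 24138 rows. All 9 hepatocyte markers examined were expressed, with means from 118 FPKM (Hnf4a) to 12970 FPKM (Apoa1). Markers of cholangiocytes, macrophages, stellate cells and endothelial cells were also expressed, and 0 of 5 muscle and 0 of 5 adipocyte markers were expressed. In bulk liver, fewer cells of a type and less RNA per cell cannot be told apart. An exact 0 in this table can be a failed estimate, since Alb, the most typical hepatocyte transcript, was also listed at 0 in all 4 livers.

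The carriers were mostly present and often abundant. Of the 47 members, 36 (76.6%) were expressed, against 43.7% of all rows, 7 lay between 0 and 1 FPKM, and 4 were listed at 0 in all 4 livers. The median of the means of the 36 expressed members was 16.2 FPKM, against 7.83 FPKM over all expressed genes. A mean of at least 100 FPKM was reached by 7 of the 36 (19.4%), against 7.67% of expressed genes. The members summed to 2525, 2362, 2519 and 2784 FPKM in livers 1 to 4, which was 0.481%, 0.452%, 0.487% and 0.488% of the summed FPKM of all genes. This sum was unevenly distributed. The 3 most abundant members, Slc25a5, Slc25a47 and Slc25a39, held 48.1 ± 1.76% of it (SD, n = 4), and the 10 most abundant held 82.5 ± 1.29% (SD, n = 4). At the limit of 1 FPKM, Slc25a24 lay just inside with a mean of 1.33 FPKM and Slc25a14 just outside with 0.925 FPKM.

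**Figure D1:**
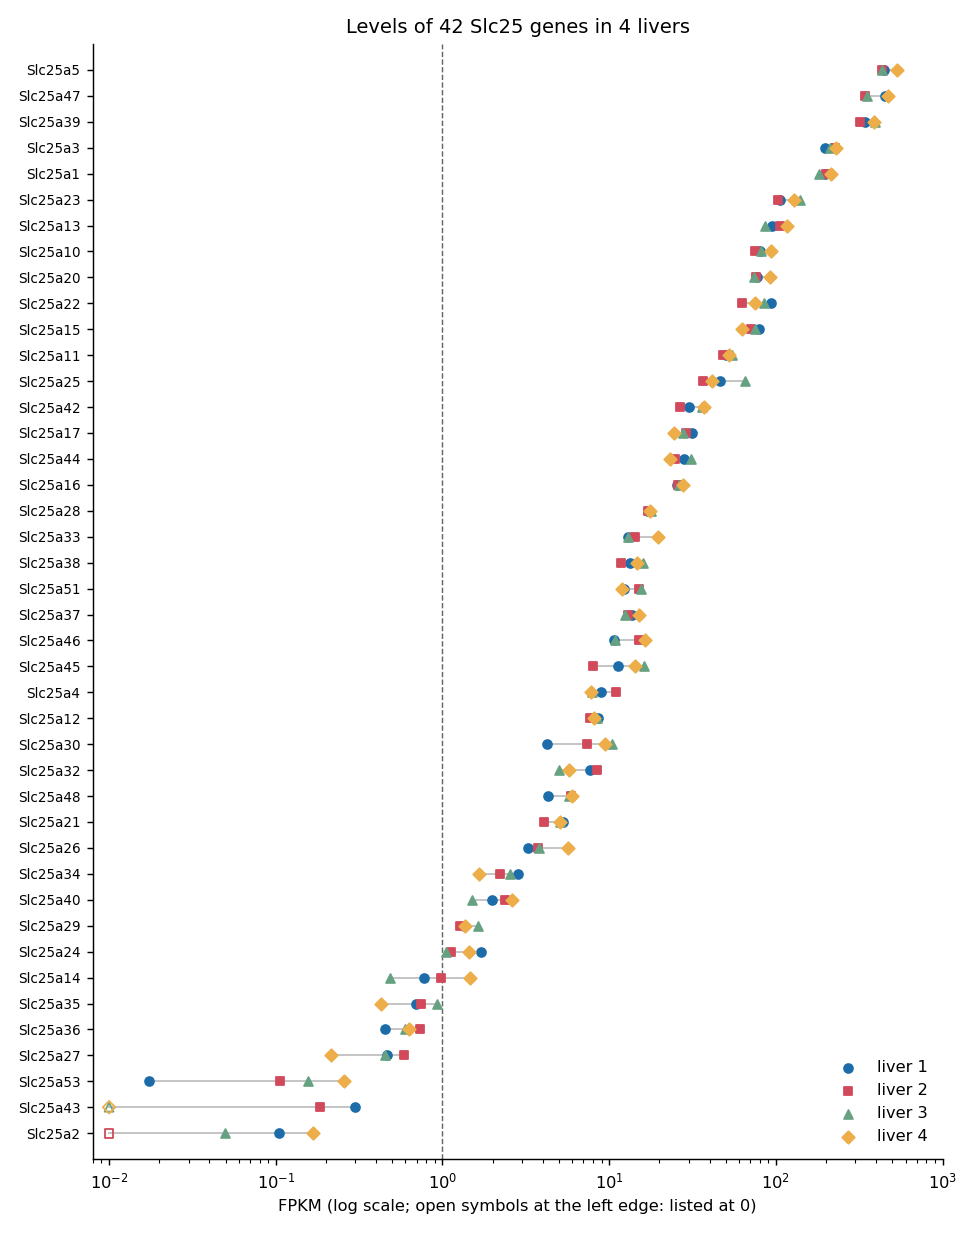
Levels of 42 of the 43 Slc25 genes with a value above 0, one row per gene ordered by mean, with FPKM on a logarithmic horizontal axis and a symbol for each of the 4 livers. The grey line spans the lowest to the highest liver and the dashed line marks 1 FPKM. Slc25a5, Slc25a47 and Slc25a39 lie at 319 FPKM or more in every liver, and open symbols mark the livers in which Slc25a43 and Slc25a2 were listed at 0.

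When members were ordered by mean, neighbours were rarely separated. Of the 35 neighbouring pairs among the expressed members, the ranges over the 4 livers did not overlap in 5. Of these gaps, 4 lay between Slc25a39 and Slc25a3, between Slc25a1 and Slc25a23, between Slc25a15 and Slc25a11, and between Slc25a16 and Slc25a28. Of the 10 members with the highest mean, 8 were among the top 10 of the family in each of the 4 livers.

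Carriers of adenine nucleotides and phosphate made up the largest share of the family. The 8 members of this group, of which 6 were expressed, summed to 803, 812, 861 and 942 FPKM in livers 1 to 4, or 33.5 ± 1.19% of the family (SD, n = 4). Slc25a5 (XLOC_023105; chromosome X, 36795597 to 36798808), which encodes the ADP/ATP translocase ANT2 of proliferating and many epithelial tissues, had 442, 434, 436 and 535 FPKM in livers 1 to 4. Livers 1 to 3 lay close together and liver 4 stood above them, 1.21-fold over the next highest. Its mean of 462 ± 48.9 FPKM (SD, n = 4) was higher than that of 98.4% of expressed genes. The value is uncertain, because 33.8% of the stretches of 50 bases in its annotated transcripts also occur in transcripts of 9 other genes, foremost the processed pseudogene Gm5560, and reads from such stretches could be split between copies.

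Slc25a4 (chromosome 8, 46207341 to 46211009), which encodes ANT1, the isoform of heart and skeletal muscle, was listed at 8.88, 11.06, 7.86 and 7.82 FPKM. Liver 2 was the highest. The ratio of Slc25a5 to Slc25a4 was 49.8, 39.2, 55.5 and 68.4 in livers 1 to 4, so ANT2 transcripts exceeded ANT1 transcripts in every liver. Summed endothelial markers were also highest in liver 2, at 15.1, 26.0, 18.3 and 19.7 FPKM in livers 1 to 4, but lowest in liver 1, whereas Slc25a4 was lowest in liver 4. Summed stellate cell markers were 228, 289, 186 and 209 FPKM. Summed macrophage markers were highest in liver 4 and summed cholangiocyte markers in liver 1. All 5 endothelial and all 6 stellate cell markers were expressed. Liver 2 was the highest for 4 of 5 and 4 of 6 of them, against 22.0% of expressed genes. Cdh5 was highest in liver 3 and Lrat and Des in liver 1, and the stellate sum is mostly that of Dcn. The part of these cell types in the level of Slc25a4 was not tested. Slc25a31, the germ cell isoform ANT4, was listed at 0 in all 4 livers.

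Slc25a3 (chromosome 10, 91116578 to 91123963) encodes the phosphate carrier, which supplies ATP synthase with phosphate and also carries copper. It was listed at 198, 226, 210.4 and 229 FPKM, a mean of 216 ± 14.5 FPKM (SD, n = 4). The ratio of Slc25a3 to Slc25a5 was 0.470 ± 0.0416 (SD, n = 4), with a range from 0.427 to 0.522, or 1.22-fold between animals.

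The ATP-Mg/phosphate carriers, which adjust the adenine nucleotide content of the matrix and are mostly activated by calcium, were represented mainly by Slc25a23 and Slc25a25. Slc25a23 (chromosome 17, 57043711 to 57059863) was listed at 106, 103, 140.3 and 128 FPKM, with livers 3 and 4 above livers 1 and 2. Slc25a25 (chromosome 2, 32414487 to 32455476) was listed at 46.3, 36.5, 65.5 and 41.2 FPKM, with liver 3 1.41-fold above the next highest. Slc25a24 was listed at 1.70, 1.12, 1.05 and 1.45 FPKM, and Slc25a41, a relative that lacks the calcium-binding part, at 0 in all 4 livers. Slc25a23 thus exceeded Slc25a25 by 2.59 ± 0.456 and Slc25a24 by 94.1 ± 29.7 as ratios (each SD, n = 4). The deposited span of Slc25a25 is shared with Naif1, a gene on the opposite strand with 0.540, 0.774, 1.41 and 0.942 FPKM, likewise highest in liver 3. Exons of Naif1 cover 4.82% of the annotated exonic bases of Slc25a25. The part of Naif1 in the level of Slc25a25 was not tested.

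Carriers of di- and tricarboxylates were all expressed and varied little. The 4 members summed to 337 ± 19.8 FPKM (SD, n = 4), or 13.3 ± 0.442% of the family. Slc25a1 (chromosome 16, 17925211 to 17928219), the citrate carrier that delivers citrate to the cytosol for fatty acid synthesis, was listed at 198, 199.8, 181 and 216 FPKM. Slc25a10 (chromosome 11, 120491837 to 120501161), the dicarboxylate carrier that exchanges malate or succinate for phosphate, was listed at 80.2, 75.4, 81.7 and 92.9 FPKM. Slc25a11, the oxoglutarate/malate carrier of the malate-aspartate shuttle, had 51.3 ± 2.92 FPKM (SD, n = 4). Its spread was among the smallest, with a 1.14-fold range. Slc25a21, the oxodicarboxylate carrier of lysine and tryptophan breakdown, was lower at 4.88 ± 0.544 FPKM (SD, n = 4). Slc25a10 exceeded Slc25a11 in each liver, by a ratio of 1.61 ± 0.114 (SD, n = 4).

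Among the amino acid carriers, the isoforms known from liver prevailed. The 9 members, 7 of them expressed, summed to 319, 284, 304 and 301 FPKM in livers 1 to 4. Slc25a13 (chromosome 6, 6041218 to 6217173) encodes citrin, the aspartate/glutamate carrier of liver that serves the malate-aspartate shuttle and the urea cycle. It was listed at 94.3, 106, 86.2 and 116 FPKM. Slc25a12, which encodes aralar, the isoform of brain and muscle, was listed at 8.61, 7.70, 8.45 and 8.06 FPKM. Citrin transcripts exceeded aralar transcripts 10.9-, 13.7-, 10.2- and 14.4-fold in livers 1 to 4. The range over the livers was 1.12-fold for aralar and 1.35-fold for citrin.

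Slc25a22 (chromosome 7, 141429749 to 141437874), a glutamate carrier, was listed at 93.5, 62.7, 84.7 and 74.9 FPKM. Liver 1 was the highest and liver 2 the lowest. Slc25a18, the other glutamate carrier, was listed at 0 in all 4 livers. Slc25a15 (chromosome 8, 22375550 to 22398621), the ornithine/citrulline carrier that links the mitochondrial and cytosolic arms of the urea cycle, was listed at 79.3, 70.6, 75.5 and 62.4 FPKM, with liver 4 the lowest. Slc25a2, the other ornithine carrier, was at 0.105, 0, 0.0499 and 0.167 FPKM, values that rest on few fragments in a deposited span shared with 24 other genes. Slc25a44, which has been linked to branched-chain amino acid uptake, had 26.8 ± 3.43 FPKM, and Slc25a38, which carries glycine for haem synthesis, had 13.96 ± 1.82 FPKM (each SD, n = 4). Slc25a29, a carrier of basic amino acids, was near the limit at 1.41 ± 0.161 FPKM (SD, n = 4).

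Slc25a20 (chromosome 9, 108662098 to 108684641) encodes the carnitine/acylcarnitine carrier, the step of the carnitine shuttle that takes long-chain acyl groups through the inner membrane. It was listed at 77.1, 76.3, 73.9 and 92.4 FPKM. Livers 1 to 3 spanned less than the step from them to liver 4, which was 1.20-fold above the next highest. Dixon's ratio, the gap of the most extreme liver to its neighbour over the whole range, was 0.809 on the log2(FPKM + 1) scale and just below the 95% critical value for 4 samples.

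Carriers of iron and glutathione were dominated by Slc25a39. Slc25a39 (chromosome 11, 102402976 to 102407517), which is needed for the glutathione content of mitochondria, was listed at 344, 319, 396 and 389 FPKM. It held 14.2% of the family. Its relative Slc25a40 was listed at 1.99, 2.38, 1.51 and 2.61 FPKM, so Slc25a39 exceeded it 173-, 134-, 263- and 149-fold in livers 1 to 4. In liver 3 the pair stood furthest apart, since Slc25a39 was highest and Slc25a40 lowest there.

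The mitoferrins import iron for haem and iron-sulphur clusters, and both were expressed at similar levels. Slc25a28, mitoferrin 2, was listed at 17.03, 17.2, 17.9 and 17.7 FPKM, the narrowest spread of the 36 expressed members with an SD of 0.03 on the log2(FPKM + 1) scale. Slc25a37, mitoferrin 1, which is known for its role in red cell precursors, was listed at 13.7, 12.9, 12.4 and 15.1 FPKM. The ratio of Slc25a28 to Slc25a37 was 1.30 ± 0.118 (SD, n = 4). The 5 rows of erythroid markers summed to 1076, 830, 428 and 706 FPKM in livers 1 to 4. Liver 3 was the lowest, as for Slc25a37, but liver 1 was the highest, whereas Slc25a37 was highest in liver 4. The sum is mostly that of 2 rows for the globin Hba-a1, while Alas2, the erythroid enzyme that opens haem synthesis, was highest in liver 3 at 55.8, 43.8, 64.0 and 57.0 FPKM. Of the 5 rows 3 were expressed and 0 were listed at 0 in all livers. Their part in the level of Slc25a37 was not tested.

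Carriers of cofactors and nucleotides were moderate in level, and 8 of 9 were expressed. They summed to 131 ± 4.62 FPKM (SD, n = 4), or 5.14 ± 0.203% of the family. Slc25a42, which imports coenzyme A, had 32.5 ± 4.86 FPKM, and the peroxisomal carrier Slc25a17 had 28.2 ± 2.89 FPKM (each SD, n = 4). Slc25a16, whose loss has been tied to low mitochondrial coenzyme A, had 26.3 ± 0.988 FPKM (SD, n = 4) and a 1.09-fold range. Slc25a51, the mammalian mitochondrial NAD+ carrier, had 13.7 ± 1.84 FPKM (SD, n = 4).

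A few members of this group were higher in some livers. Slc25a26, which imports S-adenosylmethionine, was listed at 3.27, 3.73, 3.81 and 5.65 FPKM. Slc25a33, a pyrimidine nucleotide carrier, was listed at 12.9, 14.4, 13.01 and 19.7 FPKM. Both were highest in liver 4, which exceeded the next liver 1.48-fold for Slc25a26 and 1.37-fold for Slc25a33. Slc25a32, which has been linked to the transport of folate and FAD, was listed at 7.63, 8.43, 5.002 and 5.75 FPKM, with livers 1 and 2 above livers 3 and 4. Slc25a36, the other pyrimidine nucleotide carrier, was listed at 0.451, 0.738, 0.596 and 0.632 FPKM, and Slc25a33 exceeded it 25.3 ± 5.52-fold (SD, n = 4). The deposited span of Slc25a26 is shared with Lrig1, a gene on the opposite strand that had a mean of 4.83 FPKM, and a non-coding gene on the opposite strand, Gm13068, covers 14.9% of the exonic bases of Slc25a33. Whether the counting used strand is not given in the sources used here.

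The relatives of uncoupling proteins that are known from brain and kidney were low. Slc25a30 (chromosome 14, 75761999 to 75787037) was the expressed member of the 3, at 4.27, 7.31, 10.4 and 9.43 FPKM. Liver 1 was the lowest, 1.71-fold under the next. Slc25a14 was listed at 0.773, 0.985, 0.484 and 1.46 FPKM, and Slc25a27 at 0.467, 0.589, 0.452 and 0.213 FPKM.

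The remaining group held the outer membrane member Slc25a46 and carriers not placed in the groups above. It owed its sum to Slc25a47 (chromosome 12, 108851129 to 108856815), a gene known for its restriction to liver. Slc25a47 was listed at 453, 342, 352 and 471 FPKM, with livers 1 and 4 above livers 2 and 3. Slc25a46, which takes part in the shaping of mitochondria, was listed at 10.7, 15.1, 10.8 and 16.3 FPKM, with livers 2 and 4 above livers 1 and 3. Slc25a45 was listed at 11.3, 7.98, 16.1 and 14.2 FPKM. Slc25a48 was listed at 4.31, 5.91, 5.74 and 5.96 FPKM, so that livers 2 to 4 lay close together and liver 1 stood below them. Slc25a34 had 2.31 ± 0.509 FPKM (SD, n = 4). Slc25a35 had 0.696 ± 0.205 FPKM, and 31.3% of its exonic bases are also exons of Rangrf on the opposite strand. Slc25a43 was listed at 0.297, 0.184, 0 and 0 FPKM, Slc25a53 at 0.0173, 0.105, 0.155 and 0.257 FPKM, and Slc25a54 at 0 in all 4 livers.

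**Figure D2:**
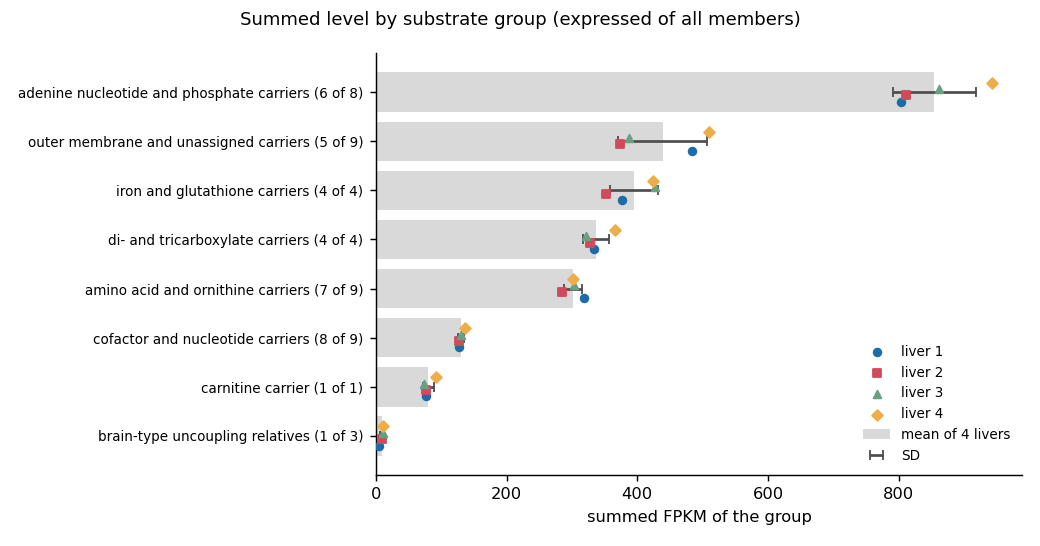
Summed FPKM of each substrate group, with the horizontal axis from 0, grey bars for the mean of 4 livers, error bars for the SD, and a symbol for each liver. Numbers after the group names give expressed of all members. The adenine nucleotide and phosphate carriers sum to 803 to 942 FPKM and the brain-type uncoupling relatives to under 12 FPKM.

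Several members lie side by side in the genome, and 4 pairs less than 25 kb apart were found. On chromosome 12, Slc25a29 and Slc25a47 are 15.3 kb apart on opposite strands, and Slc25a47 exceeded Slc25a29 by 337, 268, 214 and 346 as ratios in livers 1 to 4. On chromosome 17, Slc25a41 and Slc25a23 are 2.06 kb apart on the same strand, the former listed at 0 and the latter at 103 to 140.3 FPKM. On chromosome X, Slc25a43 and Slc25a5 are 18.3 kb apart on the same strand, and on chromosome 3 Slc25a54 and Slc25a24 are 6.57 kb apart on the same strand, the former listed at 0 and the latter near the limit. In each of these 4 pairs there were 0 annotated protein-coding genes between the members, and their ranges over the livers did not overlap. The values of 0 for Slc25a41 and Slc25a54 can be failed estimates, so the separation of those pairs is uncertain.

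**Figure D3:**
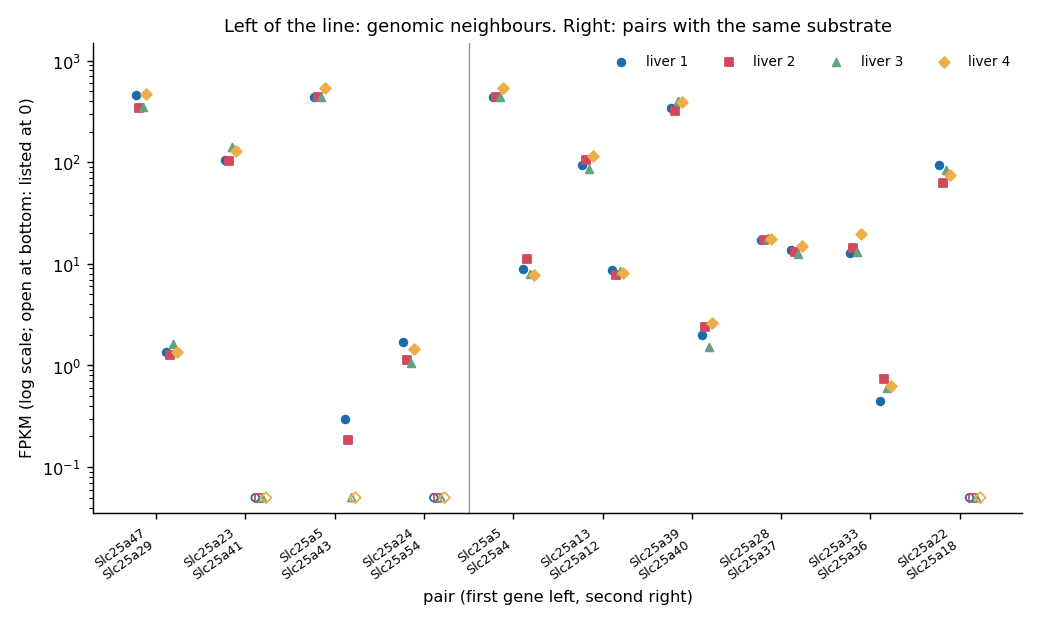
FPKM on a logarithmic vertical axis for pairs of members, the first gene of each pair on the left and the second on the right, with a symbol for each of the 4 livers. Pairs left of the grey line are genomic neighbours and pairs right of it share a substrate. The ranges of Slc25a28 and Slc25a37 come closest, at 17.03 to 17.9 and 12.4 to 15.1 FPKM, while Slc25a39 and Slc25a40 differ more than 100-fold.

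Promoter sequences are shown for 2 of these neighbouring pairs, those of Slc25a47 and Slc25a5, the most abundant members, and for Slc25a25, whose level varied between livers. Each is the 250 bases before a transcription start listed in the RefSeq promoter table (GRCm38.p6), written 5′ to 3′ on the strand of the gene. Capitals mark matches on either strand to 7 motifs. The letters searched were TATAAA for the TATA box, CCAAT for the box of that name, GGGCGG for the core bound by Sp1 and CACGTG for the E-box. They were TGACGTCA for the cyclic AMP response element and CAAAGTCCA for a direct repeat bound by HNF4. The NRF1 palindrome was searched as GCGCA followed directly by its reverse complement. None of these motifs contains another.
Slc25a47, chr12:108850879-108851128, plus strand: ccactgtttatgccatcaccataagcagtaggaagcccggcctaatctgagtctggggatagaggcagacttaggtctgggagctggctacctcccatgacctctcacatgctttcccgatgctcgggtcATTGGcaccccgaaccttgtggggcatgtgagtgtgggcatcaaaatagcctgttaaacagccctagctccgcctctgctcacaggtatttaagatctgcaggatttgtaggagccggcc
Slc25a29, chr12:108835877-108836126, minus strand: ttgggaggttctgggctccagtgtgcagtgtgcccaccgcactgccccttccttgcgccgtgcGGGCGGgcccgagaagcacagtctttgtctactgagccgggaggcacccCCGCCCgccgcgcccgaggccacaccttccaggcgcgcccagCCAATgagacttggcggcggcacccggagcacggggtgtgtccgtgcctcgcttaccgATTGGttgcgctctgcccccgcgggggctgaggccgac
Slc25a5, chrX:36795347-36795596, plus strand: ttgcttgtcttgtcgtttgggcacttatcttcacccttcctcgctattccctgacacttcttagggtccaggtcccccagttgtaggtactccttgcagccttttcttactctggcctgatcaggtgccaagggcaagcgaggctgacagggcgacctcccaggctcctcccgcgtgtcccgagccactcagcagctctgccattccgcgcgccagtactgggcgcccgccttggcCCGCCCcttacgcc
Slc25a43, chrX:36743382-36743631, plus strand: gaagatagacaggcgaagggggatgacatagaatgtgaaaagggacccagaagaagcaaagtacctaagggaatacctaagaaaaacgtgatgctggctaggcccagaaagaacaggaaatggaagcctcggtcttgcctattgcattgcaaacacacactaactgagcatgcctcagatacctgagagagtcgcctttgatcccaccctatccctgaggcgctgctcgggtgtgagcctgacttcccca
Slc25a25, chr2:32451471-32451720, minus strand: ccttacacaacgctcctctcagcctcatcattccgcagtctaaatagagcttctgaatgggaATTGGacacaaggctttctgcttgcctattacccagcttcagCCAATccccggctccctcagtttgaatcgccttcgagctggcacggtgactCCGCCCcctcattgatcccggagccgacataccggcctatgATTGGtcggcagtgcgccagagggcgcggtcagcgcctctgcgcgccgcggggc
The upstream sequence of Slc25a47 held 1 match, a CCAAT box read on the opposite strand 120 bases before the start, and had 6 CpG dinucleotides. That of its neighbour Slc25a29 had 25 CpG dinucleotides, 2 Sp1 cores and 2 CCAAT boxes. Slc25a5 had 14 CpG dinucleotides and 1 Sp1 core 14 bases before the start, and its neighbour Slc25a43 had 6 CpG dinucleotides and 0 matches. Slc25a25 has 3 annotated starts, and the most upstream of them, shown here, had 3 CCAAT boxes and 1 Sp1 core. The RefSeq gene spans of Slc25a47 and Slc25a43 begin upstream of the starts used here, so these windows need not precede their only starts. A match is a string of letters and no evidence of binding.

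Promoters of 36 members were in the RefSeq table, expressed and unexpressed members together. Sp1 cores were found in 24 of 36 (66.7%), against 59.8% of 8135 expressed genes and 33.0% of 27025 promoters in all. CCAAT boxes were found in 16 of 36 (44.4%), against 36.7% of expressed genes and 34.5% of all promoters. The E-box was found in 6 of 36 (16.7%), against 8.76% and 6.04%. The TATA box was found in 1 member, Slc25a18 (2.78%), against 6.48% and 12.98%, and the cyclic AMP response element in 1 member, Slc25a36 (2.78%), against 2.77% and 1.60%. The NRF1 palindrome and the HNF4 repeat were found in 0 of 36 members, against 1.73% and 0.369% of expressed genes and 0.777% and 0.377% of all promoters. The median observed to expected ratio of CpG was 0.6001 in the members, 0.740 in expressed genes and 0.379 in all promoters.

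Genes that work with these carriers were examined as lists of their pathways. All 16 genes of ATP synthase were expressed, with means from 15.2 FPKM (Atpif1, its inhibitor) to 805 FPKM (Atp5b). Of these, 13 were highest in liver 4, against 33.3% of all expressed genes. Atp5a1 was listed at 508, 492, 501 and 595 FPKM and was past the critical value of Dixon's ratio (0.831), with liver 4 higher, as was Slc25a5. All 5 genes of the carnitine shuttle in the table were likewise highest in liver 4, as was Slc25a20. Among them was Cpt1a, the enzyme that commits acyl groups to the mitochondrion, listed at 209, 197, 226 and 264 FPKM. Cpt2 was listed at 79.9, 79.4, 84.1 and 89.4 FPKM.

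The genes of the urea cycle and its carriers had no single highest liver in common. Of 7 genes of the urea cycle and ornithine metabolism, all expressed, 3 were highest in liver 3 (against 26.8% of expressed genes), 2 in liver 4 (against 33.3%) and 5 were lowest in liver 2 (against 29.9%). Cps1, which forms carbamoyl phosphate in the matrix, was listed at 541, 450, 748 and 617 FPKM. Oat, which breaks down ornithine in the matrix, was listed at 95.1, 37.97, 80.6 and 67.7 FPKM. Slc25a15 was highest in liver 1, as was Oat, and Slc25a13 in liver 4, as were Otc and Nags. The 4 enzymes of the malate-aspartate shuttle (Got1, Got2, Mdh1 and Mdh2) were all highest in liver 4, with means from 144 to 319 FPKM. Of its carriers, Slc25a13 was also highest in liver 4 and Slc25a11 and Slc25a12 were not.

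Acly, which splits exported citrate, was listed at 111, 89.9, 119 and 58.4 FPKM, and Fasn, the fatty acid synthase, at 237, 176, 286 and 132 FPKM. Both were among 4 of 7 genes of this list that were lowest in liver 4, against 18.1% of expressed genes, whereas Slc25a1 was highest there. The SD on the log2(FPKM + 1) scale was 0.46 for Acly, 0.49 for Fasn and 0.10 for Slc25a1. In the same list Pcx, the pyruvate carboxylase that refills oxaloacetate, varied as little as Slc25a1, with an SD of 0.10.

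Of 8 genes of mitochondrial iron and haem, 6 were highest in liver 4, against 33.3% of expressed genes. Iscu, the scaffold of iron-sulphur cluster assembly, was 164 FPKM in liver 4 and 129.9 to 132 FPKM in the others (Dixon's ratio 0.933). Alas1, the first enzyme of haem synthesis in liver, was listed at 223, 349, 497 and 460.2 FPKM, while both mitoferrins stayed within a 1.22-fold range. Of 5 genes of glutathione synthesis and use, 4 were highest in liver 4, against 33.3% of expressed genes. In liver 3, where Slc25a39 was highest, 4 of the 5 were lowest, against 31.4% of expressed genes. Gclc, a subunit of the enzyme that limits glutathione synthesis, was 60.7 FPKM in liver 3 and 87.3 to 89.99 FPKM in the others (Dixon's ratio 0.924).

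Carriers are delivered to the inner membrane by TOM and TIM22 complexes. Of 10 listed genes of this route 9 were in the table and all 9 were expressed. Means ran from 3.14 FPKM (Agk) and 3.26 FPKM (Timm22, the pore of the inner membrane) to 48.7 FPKM (Tomm22), and 6 of the 9 were highest in liver 4, against 33.3% of expressed genes. Among transporters of other families, Mpc1 and Mpc2, the pyruvate carrier, had 154 ± 16.0 and 159 ± 19.3 FPKM, and Vdac1, the outer membrane channel, had 132 ± 20.2 FPKM (each SD, n = 4). Letm1, an inner membrane ion exchanger, was 22.5 FPKM in liver 2 and 33.4 to 35.4 FPKM in the others (Dixon's ratio 0.874). Genes of the carrier fold with other symbols were also present. Ucp2 had 48.2 ± 6.08 FPKM, Mtch1 43.1 ± 4.55 FPKM and Mtch2 75.6 ± 4.64 FPKM (each SD, n = 4), while Ucp1 and Ucp3 were listed at 0 in all 4 livers.

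These counts by liver depended on which scaling was used. With median-ratio scaling liver 4 was the highest for 13 of 16 genes of ATP synthase, 5 of 5 of the carnitine shuttle, 4 of 4 of the malate-aspartate shuttle, 6 of 8 of iron and haem, 3 of 5 of glutathione and 6 of 9 of carrier import, against 27.1% of all expressed genes. With libraries brought to equal sums without the 100 most abundant genes, which like the former was chosen after seeing the data for these counts, liver 4 was the highest for 8 of 16 genes of ATP synthase, 3 of 5 of the carnitine shuttle, 2 of 4 of the malate-aspartate shuttle, 4 of 8 of iron and haem, 1 of 5 of glutathione and 4 of 9 of carrier import. It was the highest for 18.0% of all expressed genes under the latter. Slc25a5, Slc25a20, Slc25a13 and Slc25a1 were highest in liver 4 under both, and Slc25a39 in liver 3.

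The spread of the carriers between animals was close to that of other genes. The median SD of log2(FPKM + 1) was 0.18 over the 36 expressed members and 0.16 over all expressed genes. Adding 1 before taking logarithms compresses differences between low values. The largest SDs were those of Slc25a30 (0.50), Slc25a45 (0.41), Slc25a25 (0.36), Slc25a32 (0.30) and Slc25a46 (0.30), and the smallest those of Slc25a28 (0.03), Slc25a16 (0.05) and Slc25a12 (0.06). The highest liver exceeded the lowest at least 1.5-fold for 10 of 36 members (27.8%), against 28.4% of expressed genes. The range was at least 2-fold for Slc25a30 (2.44-fold) and Slc25a45 (2.02-fold), 2 of 36 (5.56%) against 6.54%. Both shares were near those of all expressed genes. The median SD of the partner lists ran from 0.12 for ATP synthase to 0.25 for citrate export and lipogenesis.

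**Figure D4:**
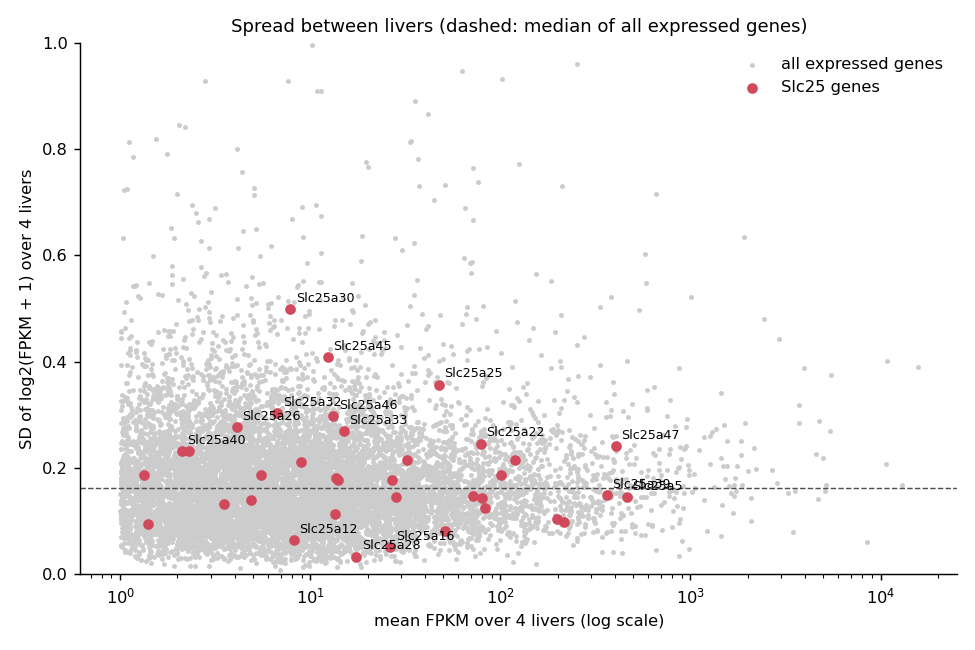
SD of log2(FPKM + 1) over the 4 livers against the mean FPKM on a logarithmic axis, with grey points for all expressed genes and red points for the 36 expressed Slc25 genes. The dashed line is the median of all expressed genes (0.16), and 29 genes with an SD above 1 lie outside the axis. Slc25a30 (0.50) and Slc25a45 (0.41) are the highest of the family and Slc25a28 (0.03) the lowest.

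Dixon's ratio was past its 95% critical value for 2 of 36 members (5.56%), against 5.46% of all expressed genes, a share near the background. These were Slc25a5, with liver 4 higher (0.908), and Slc25a48, with liver 1 lower (0.881). Neither was past it when libraries were scaled to equal sums without the 100 most abundant genes, where the ratios were 0.708 and 0.824.

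The members were unevenly distributed over the livers, as were all expressed genes. Of the 36 expressed members 16 (44.4%) were highest in liver 4, against 33.3% of expressed genes, 11 in liver 3 (against 26.8%), 7 in liver 1 (against 17.9%) and 2 in liver 2 (against 22.0%). The members highest in liver 2 were Slc25a4 and Slc25a32. In turn 14 were lowest in liver 2 (against 29.9%), 8 in liver 1 (against 20.7%), 8 in liver 3 (against 31.4%) and 6 in liver 4 (against 18.1%). Median deviations from the gene means on the log2(FPKM + 1) scale were -0.04, -0.07, 0.01 and 0.10 in livers 1 to 4 for the members, and -0.01, -0.02, -0.01 and 0.04 for all expressed genes. The summed FPKM of all genes was also largest in liver 4, at 570681 against 516816 to 524394 in the others. Summed hepatocyte markers were 31724, 31129, 30182 and 38646 FPKM in livers 1 to 4. Of these 9 markers 4 were highest in liver 4 (Ttr, Apoa1, Fgb and Cyp2e1), while Tat was lowest there at 780.2, 522, 505 and 335 FPKM. Their part in the counts was not tested. With a minimum mean of 5 FPKM, 13 of 29 members were highest in liver 4, against 39.8% of all genes at that minimum. Median-ratio scaling left 13 of 36 members highest in liver 4, against 27.1% of expressed genes, and 12 in liver 3, against 29.0%. Scaling to equal sums without the 100 most abundant genes left 11 of 36 members highest in liver 4, against 18.0% of expressed genes, and 14 highest in liver 3, against 33.9%, so that liver 3 then led. The median deviation of the members was 0.06 in liver 3 and 0.03 in liver 4 under that scaling, and 0.02 and -0.03 for all expressed genes. Of the members named above, Slc25a47 was under that scaling highest in liver 1, Slc25a3 in liver 2, and Slc25a42, Slc25a16 and Slc25a48 in liver 3. The deviations of a gene sum to 0, so that a high liver lowers the others.

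**Figure D5:**
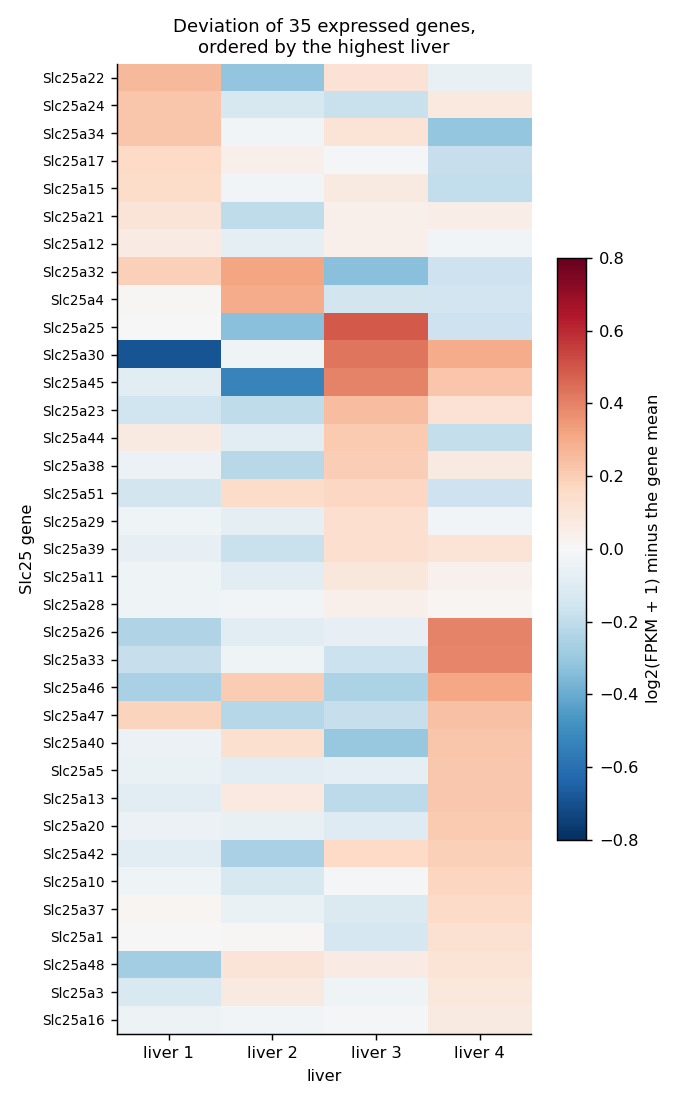
Deviation of log2(FPKM + 1) from the gene mean for 35 of the 36 expressed Slc25 genes (rows) in the 4 livers (columns), red above and blue below the mean, with rows grouped by the liver in which the gene was highest. The lowest block holds 15 of the 16 members highest in liver 4, and the strongest deviation is that of Slc25a30 in liver 1 (-0.69).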

How the data were processed

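Liver RNA of 4 mice was sequenced from poly(A)-enriched libraries, per the labels. The authors' deposited table gives 1 value per gene and liver, with no unit in its header. The deposited values were taken as FPKM, because they are not whole numbers, their totals differ, and the identifiers have the form that Cufflinks writes. The submitters' processing notes name FastQC 0.10.1, Trim Galore 0.6.3, cutadapt, STAR 2.7.6a, Cufflinks 2.2.1 and mm10. The annotation is not given in the sources used here. Columns were matched to samples by the sample descriptions, and 0 columns were left over. With 1 added to the deposited starts, 20 of 47 members began at the RefSeq start in GRCm38 (2 as deposited), so 1 was added throughout.

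From these values the mean, SD, SD of log2(FPKM + 1) and Dixon's ratio were computed over the livers with Python 3.11.15, numpy 2.4.6 and pandas 2.3.3, for every gene with a mean of at least 1 FPKM. Dixon's ratio was checked on simulated data. The depth is an estimate from coding genes with a single transcript above 800 bases in GENCODE vM21, from values times (length - 200 bases) that fell between 25 and 75, of which the median was taken as 1 fragment. Windows of 20 to 60 and 35 to 90 gave 16.6 to 21.3 M fragments. Counts could not be recovered, so no interval for counting error is given. Livers shared at most 1 identical non-zero value, so all 4 were kept. The value in every liver is given for the 10 members with the highest mean, the 10 with the largest SD, those past Dixon's ratio, those listed at 0 in some livers and isoform pairs. Members, gene lists and motifs were chosen with earlier results of these data known, and the printed promoters after their values were seen. For 1 member no values of its own are reported here, though it is included in counts and sums. Protein sequences were not used here.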

Additional observations from a re-analysis of the deposited data

Results flagged for a closer look

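Chance puts about 1 in 20 groups of 4 values past the critical value of Dixon's ratio, and 5.46% of all expressed genes were past it. Slc25a5 was past it with a ratio of 0.908, because liver 4 (535 FPKM) lay apart from the other livers (434 to 442 FPKM). Slc25a48 had a ratio of 0.881, because liver 1 (4.31 FPKM) lay below the others (5.74 to 5.96 FPKM). Among the 77 expressed genes of the partner pathways 4 (5.19%) were past it, a share near that of all expressed genes. Of these, Iscu (0.933) and Atp5a1 (0.831) had liver 4 apart and higher, Gclc (0.924) had liver 3 apart and lower, and Letm1 (0.874) had liver 2 apart and lower.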

How the results depend on the processing

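No paired analysis was possible because the livers form a single group. The number of expressed members was 36 to 37 with a liver left out, 42 with a minimum of 0.1 FPKM and 29 with a minimum of 5 FPKM. The median SD of 0.18 moved to 0.14 with a pseudocount of 5, while that of all expressed genes moved from 0.16 to 0.11, so the gap between them was wider. The count of 2 members past Dixon's ratio moved to 0 with equal sums, and was 2 under the other 5 alternatives. The count of 10 members with a 1.5-fold range was 16 of 42 with a minimum of 0.1 FPKM (41.7% of all genes), 6 of 29 with a minimum of 5 FPKM (18.1%), and 6 to 9 with a liver left out (16.4% to 22.9%), the lowest without liver 4. Fewer or more members are counted under another minimum, and a range over 3 livers cannot exceed that over 4. Counts by highest liver were recomputed under alternatives chosen after seeing the data. The 7 members highest in liver 1 were 4 with a minimum of 5 FPKM (15.5% of all genes) and 9 to 12 with a liver left out (24.99% to 29.8%). The 2 highest in liver 2 were 4 both with a minimum of 0.1 FPKM (23.9%) and with median-ratio scaling (24.9%), and 3 to 9 with a liver left out (27.3% to 34.2%). The 16 highest in liver 4 were 18 of 42 with a minimum of 0.1 FPKM (29.9%) and 13 of 29 with a minimum of 5 FPKM (39.8%). With a liver left out they were 16 to 25 (40.1% to 44.4%), the most without liver 3. Leaving out a liver hands its members to the others. Over all alternatives the median deviation of the members ran from -0.06 (without liver 2) to -0.0033 (equal sums) in liver 1, where that of all expressed genes was then 0.02. It ran from -0.07 (pseudocount of 0.1) to -0.02 (without liver 4) in liver 2, and was -0.03 there with a minimum of 0.1 FPKM. It ran from -0.01 (without liver 2) to 0.06 (equal sums) in liver 3, and was 0.04 there with a minimum of 5 FPKM. In liver 4 it ran from 0.03 (equal sums) to 0.11 (pseudocount of 0.1), and was 0.05 without liver 2 and 0.06 without liver 1. The means of the 36 expressed members moved by less than their SD with either other scaling. The scaling factors were centred near 1 (0.969 to 1.06), so means over 4 livers could hardly move and nothing follows about stability. Values near 0.05 FPKM rest on few fragments, so that Slc25a2, Slc25a43 and Slc25a53 cannot be ordered.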
